A study of Mus musculus with 6 samples.

Results

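Lipid storage and adipocyte genes were examined in mRNA of cultured bone marrow EPCs as a set of 10 genes. They are the nuclear receptor gene Pparg, the fatty acid carrier genes Fabp4 and Fabp5, the lipase genes Lpl and Lipe, the desaturase gene Scd1, the lipid droplet genes Plin1, Plin2 and Cidec, and the hormone gene Adipoq. They were taken by symbol, and all 10 were among the 21965 genes of the count table and among the 14792 genes that were tested. The CAP group was 3 male C57BL/6 mice that inhaled concentrated ambient fine particles (CAP) for 6 h per day on 30 days, and the air group was 3 male C57BL/6 mice that inhaled filtered air on the same schedule. The study's methods give the strain as C57BL/6J. All mice arrived at 11 weeks of age and rested for 1 week. Since each group was housed in 1 cage, exposure and cage cannot be told apart. Marrow cells were grown to EPCs for 12 days by the sample labels, or 10 days by the study's methods, and gave 1 library per mouse.

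Fat cells store fatty acids as triglyceride inside lipid droplets. Lipoprotein lipase frees fatty acids outside the cell, FABP proteins carry them within it, SCD1 desaturates them, perilipins and CIDEC coat and enlarge the droplet, and hormone-sensitive lipase, encoded by Lipe, helps to break the store down. PPARγ drives the program in adipocytes, and macrophages also use PPARγ, FABP4, FABP5, lipoprotein lipase and perilipin 2 when they handle lipid, whereas adiponectin, the product of Adipoq, is mainly a product of fat cells and related marrow stromal cells.

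The 10 genes differed widely in how much they varied between libraries. Pparg, Fabp4 and Fabp5 had similar counts in all 6 libraries. For Adipoq, Cidec, Plin1 and Lipe, the highest CAP library was below the lowest air library, as for 8.46% of all tested genes. Plin2 varied little, but its lowest CAP library was above its highest air library, as for 8.44% of all tested genes. Adipoq had a mean of 425 ± 435 normalized counts in CAP and 1849 ± 1092 in air (SD, n = 3 each). None of the 10 genes passed the test across all genes by edgeR, limma-voom or DESeq2, and DESeq2 called 0.149% of all genes higher and 0.0135% lower.

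The test was edgeR's quasi-likelihood test of raw counts with relative log expression (RLE) normalization, and a gene passed at a Benjamini-Hochberg adjusted p of at most 0.05 over all tested genes. A normalized count is a count divided by the RLE size factor of its library. Of all 14792 genes, 0 passed (0%), and 1564 had an unadjusted p under 0.05 (10.6%). Total counts were 28713206 to 30446171 per library. The markers of macrophages summed to 475171 to 597692 normalized counts in CAP and 659414 to 693306 in air, with none of the 9 at 0, against 2818 to 3496 in CAP and 2893 to 4998 in air for the 9 endothelial markers. The libraries labelled as EPCs thus held far more macrophage than endothelial transcript.

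By GENCODE vM21 (GRCm38), the carrier genes are close neighbours, Fabp5 at chr3:10012548-10016607 and Fabp4 at chr3:10204088-10208576. Pparg lies at chr6:115360951-115490399 and Cidec at chr6:113424634-113435760. Lipe lies at chr7:25379527-25398710, Plin1 at chr7:79720218-79732903, Plin2 at chr4:86648386-86670060, Lpl at chr8:68880491-68907448, Adipoq at chr16:23146536-23158028 and Scd1 at chr19:44394455-44407879.

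**Figure D1:**
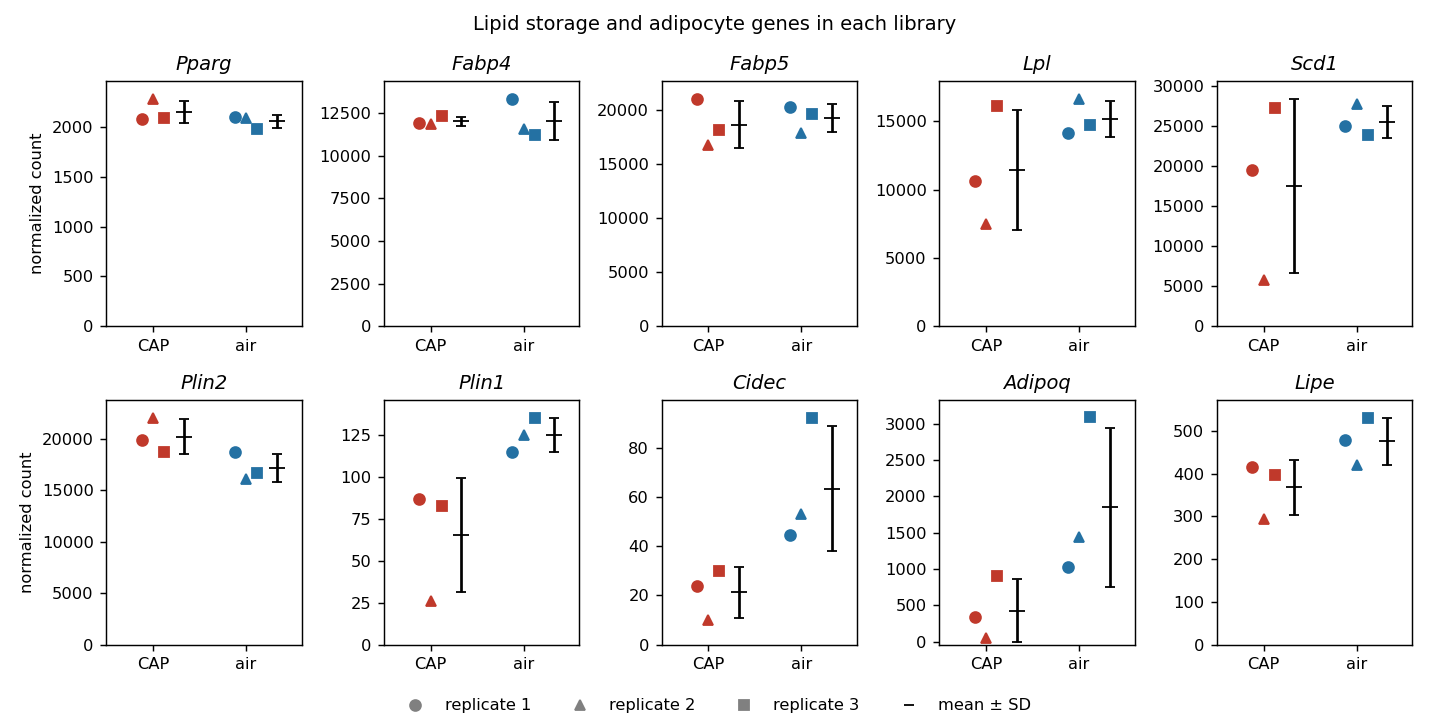
Normalized count (linear axis) of each of the 10 genes, with 1 point per library, CAP left in red and air right in blue, symbols for replicates 1 to 3, and a bar for the mean ± SD of 3 libraries. Adipoq, Cidec, Plin1 and Lipe have every CAP point below every air point, and CAP replicate 2 is the lowest point of Lpl, Scd1, Plin1, Cidec, Adipoq and Lipe.

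Pparg, the receptor that directs fat cell differentiation, was among the steadiest genes of these cultures. It had 2082, 2280.1 and 2088 normalized counts in CAP replicates 1 to 3, against 2097, 2095 and 1981 in air replicates 1 to 3. The groups overlapped, and the highest library was CAP replicate 2. The means were 2150.0 ± 113 in CAP and 2058 ± 66.3 in air (SD, n = 3 each), with a log2 fold change of 0.06 (SE 0.11, edgeR adjusted p = 0.837) and a 95% interval of 0.875 to 1.25 for the fold. Its coefficient of variation over the 6 libraries was 4.60%, at the 1.61 percentile of the 11127 genes that averaged at least 100 normalized counts, whose median was 15.3%.

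Fabp4, which carries fatty acids in fat cells and macrophages, had 11925, 11863 and 12327 normalized counts in CAP against 13339.7, 11576 and 11250.4 in air. Both the highest and the lowest library were air libraries. In edgeR it had a log2 fold change of -0.0020 (SE 0.12, adjusted p = 0.996), and the 95% interval of the fold was 0.831 to 1.20. Its relative Fabp5, the epidermal form of the carrier, had 20968, 16755 and 18087 normalized counts in CAP against 20271, 17817 and 19642 in air. The groups overlapped here too, with CAP replicates 1 and 2 at the ends. Its log2 fold change was -0.05 (SE 0.13, edgeR adjusted p = 0.901), with 0.786 to 1.19 as the 95% interval of the fold. Within a library the ratio of Fabp4 to Fabp5 was 0.569, 0.708 and 0.682 in CAP and 0.658, 0.650 and 0.573 in air, which again overlapped. Fabp5 and the Scd genes have near-identical relatives in the genome, and the sources used here do not give how reads that match several genes were counted, which leaves their counts uncertain to that extent.

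Lpl, the enzyme that releases fatty acids from lipoproteins, differed more between CAP mice than between groups. It had 10654, 7487 and 16159 normalized counts in CAP and 14163, 16632 and 14726 in air. CAP replicates 1 and 2 lay below all air libraries, and CAP replicate 3 lay among them. The fit gave a log2 fold change of -0.41 (SE 0.25, edgeR adjusted p = 0.530). It was -0.19 without CAP replicate 2 and -0.74 without CAP replicate 3.

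Scd1, which makes monounsaturated fatty acids for storage, had the same order of CAP libraries. It had 19497, 5735 and 27259.5 normalized counts in CAP and 25052, 27786 and 23881 in air. CAP replicate 2 was far below all other libraries, and CAP replicate 3 was within the air range. Its fitted log2 fold change was -0.55 (SE 0.44, edgeR adjusted p = 0.628), and it was -0.14 without CAP replicate 2 and -1.02 without CAP replicate 3. Scd2, a second desaturase and the more abundant of the pair by count in each library, was low in the same library, with 49035, 14761 and 44860 normalized counts in CAP and 45309, 50627 and 37978 in air. The ratio of Scd1 to Scd2 was 0.398, 0.389 and 0.608 in CAP and 0.553, 0.549 and 0.629 in air.

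The 3 droplet coat genes did not run in 1 direction. Plin2, the perilipin found on droplets of most cell types, had 19907, 22085 and 18762.9 normalized counts in CAP and 18759.1, 16078 and 16721 in air. Every CAP library was above every air library, but CAP replicate 3 and air replicate 1 were almost level. The log2 fold change was 0.24 (SE 0.13, edgeR adjusted p = 0.492), with a 95% interval of -0.05 to 0.52.

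Plin1, the perilipin of fat cells, had 86.6, 25.9 and 82.8 normalized counts in CAP and 115, 125 and 135 in air. All CAP libraries were below all air libraries, and CAP replicate 2 was lowest by a wide margin. For Plin1 the log2 fold change was -0.94 (SE 0.40), with a 95% interval of -1.85 to -0.02 and an edgeR adjusted p of 0.468, and it was -0.57 without CAP replicate 2. Cidec, whose product fuses small droplets into large ones in fat cells, had 23.8, 9.97 and 29.9 normalized counts in CAP and 44.7, 53.4 and 92.5 in air. The groups did not overlap, and the lowest library was again CAP replicate 2. For Cidec the log2 fold change was -1.57 (SE 0.51, edgeR adjusted p = 0.468), and it was -1.25 without CAP replicate 2. At this depth the count behind the lowest Cidec value was 10 reads.

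Adipoq, the gene of the fat cell hormone adiponectin, had the widest range of the set. It had 333, 42.9 and 898 normalized counts in CAP and 1024, 1434 and 3088 in air. The groups did not overlap, although CAP replicate 3 lay close to air replicate 1, and air replicate 3 was the highest library. The fitted CAP level was 0.230 of the air level, with a 95% interval of 0.0687 to 0.767, which is a log2 fold change of -2.12 (SE 0.76, edgeR adjusted p = 0.468). The log2 fold change was -1.53 without air replicate 3 and -3.29 without CAP replicate 3. Its coefficient of variation of 94.8% lay at the 99.6 percentile of the genes that averaged at least 100 normalized counts, the opposite end from Pparg.

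Lipe, which encodes hormone-sensitive lipase, had 415, 294 and 396 normalized counts in CAP and 479.6, 420.1 and 529.7 in air. The groups did not overlap, but CAP replicate 1 and air replicate 2 were close. The log2 fold change was -0.37 (SE 0.20, edgeR adjusted p = 0.496), with a 95% interval of -0.82 to 0.08, and it was -0.24 without CAP replicate 2.

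**Figure D2:**
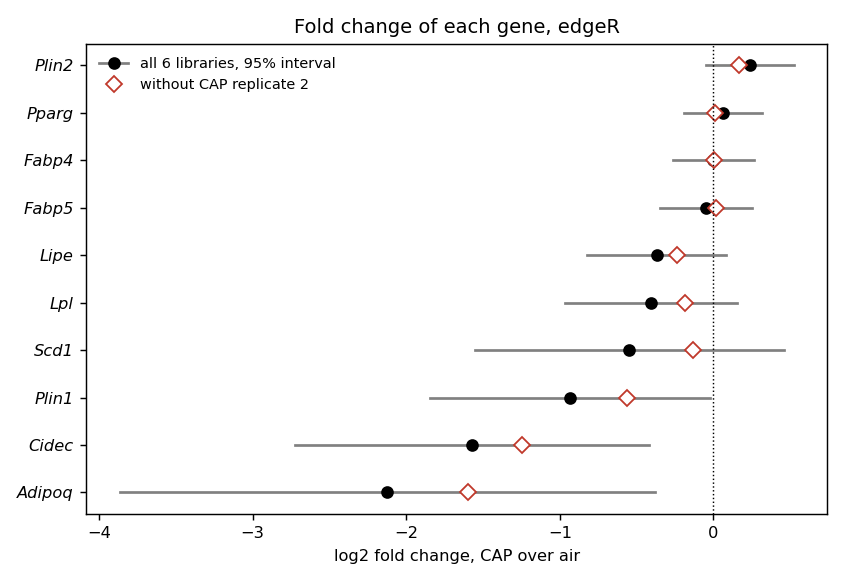
Log2 fold change of each gene, CAP over air, from edgeR with all 6 libraries (black points, bars for the 95% interval) and without CAP replicate 2 (open red diamonds). The points run from 0.24 for Plin2 to -2.12 for Adipoq, and the intervals of Plin1, Cidec and Adipoq lie below 0 before adjustment over all genes.

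By count, 8 of the 10 genes had a log2 fold change below 0, against 51.2% of all tested genes, and their median was -0.39, against -0.0084 over all tested genes. That median was -0.16 without CAP replicate 2 and -0.58 without CAP replicate 3. Adipoq, Cidec and Plin1 had an unadjusted p under 0.05, all lower in CAP, where the share of all genes lower at that level was 4.68%. No gene of the set was higher at that level, where the share was 5.89%. The count of 3 became 2 with an older form of the same test, 1 with DESeq2, 5 without CAP replicate 3 and 0 without air replicate 3. Adipoq, Cidec, Plin1 and Lipe were lower without overlap between groups, as were 8.46% of all genes, and Plin2 was higher without overlap, as were 8.44%. These counts were also 4 and 1 without CAP replicate 2, where the shares of all genes were 11.2% and 11.8%.

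Levels can be compared between genes only per length, here as normalized counts per kilobase of merged exons over the 6 libraries. Plin2 averaged 5330.0, Fabp5 5305, Scd1 4402, Fabp4 2684, Lpl 1270, Adipoq 823, Pparg 713, Lipe 71.8, Cidec 22.8 and Plin1 20.4 per kilobase. The ranges of neighbours in this order did not overlap between Fabp4 and Lpl, between Pparg and Lipe, or between Lipe and Cidec, and all other neighbours overlapped. The carriers, the desaturase and Plin2 thus stood far above the fat cell droplet genes Plin1 and Cidec on this scale, while Adipoq overlapped Pparg. The length of the principal transcript changed the order of neighbours, with Fabp5 and Fabp4 then at the top.

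The library lowest in Adipoq, CAP replicate 2, was also lowest in some other genes of marrow stroma. Over the 6 libraries, the genes whose profile of centred log2 values lay nearest to that of Adipoq were Igfbp5, a secreted binder of insulin-like growth factors, Ism1 and Srpx, at root mean square differences of 0.18, 0.18 and 0.25 log2 units, where the spread of Adipoq itself was 1.96. Igfbp5 had 3118, 462 and 7560.4 normalized counts in CAP and 12379, 16529 and 29674 in air. CAP replicate 2 was the lowest and air replicate 3 the highest library, as for Adipoq, but these genes were picked for that likeness.

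Cxcl12, the chemokine of the marrow stromal cells that hold progenitors in place, had 17329, 5229 and 40618 normalized counts in CAP and 49517, 63920.1 and 116676 in air. Lepr, the leptin receptor gene that marks these stromal cells, had 1468, 869 and 2361 in CAP and 2182, 3425 and 7064 in air. Cxcl12 and Lepr were picked from 9 stromal markers, whose sum overlapped between the groups. The ratio of Adipoq to Cxcl12, chosen after its values were seen, was 0.0192, 0.00820 and 0.0221 in CAP and 0.0207, 0.0224 and 0.0265 in air. CAP replicate 2 was far lowest, but the highest CAP ratio was above the lowest air ratio. The ratio of Adipoq to Lepr was 0.227, 0.0493 and 0.380 in CAP and 0.469, 0.419 and 0.437 in air, with every CAP library below every air library. CAP replicate 3 and air replicate 2 were close. No ratio between genes was planned beforehand.

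All 9 stromal markers had a log2 fold change below 0, with a median of -0.40, and 0 passed the edgeR test. They summed to 53412 to 133307 normalized counts in CAP and 130889 to 207914 in air, and none was at 0. Of the 9 macrophage markers, 8 had a log2 fold change below 0 and 0 passed. Lower without overlap between groups were 8.46% of all tested genes, 1 of the 9 stromal markers and 3 of the 9 macrophage markers. Of the 9 endothelial markers, 7 were below 0, with a median of -1.04, 0 passed, and Pecam1, Cdh5 and Tek were lower without overlap between groups. Air replicate 3 was their highest library and Tek was at 0 in CAP replicates 1 and 2. The 7 adipocyte markers summed to 134 to 1144 in CAP and 1341 to 3646 in air, with Lep, the gene of leptin, at 0 in all libraries. They include Adipoq, Plin1 and Cidec, so this sum is not separate from the set. Adipoq alone was 898 of 1144 in CAP replicate 3 and 3088 of 3646 in air replicate 3. Of the 6 tested adipocyte markers, 5 had a log2 fold change below 0 and 1 was above 0, at 1.22, and 0 passed. The part of stromal, macrophage and endothelial transcripts in the values of Adipoq, Plin1, Cidec and the other genes was not tested, and in these bulk cultures fewer cells of a type and less RNA per cell cannot be told apart.

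**Figure D3:**
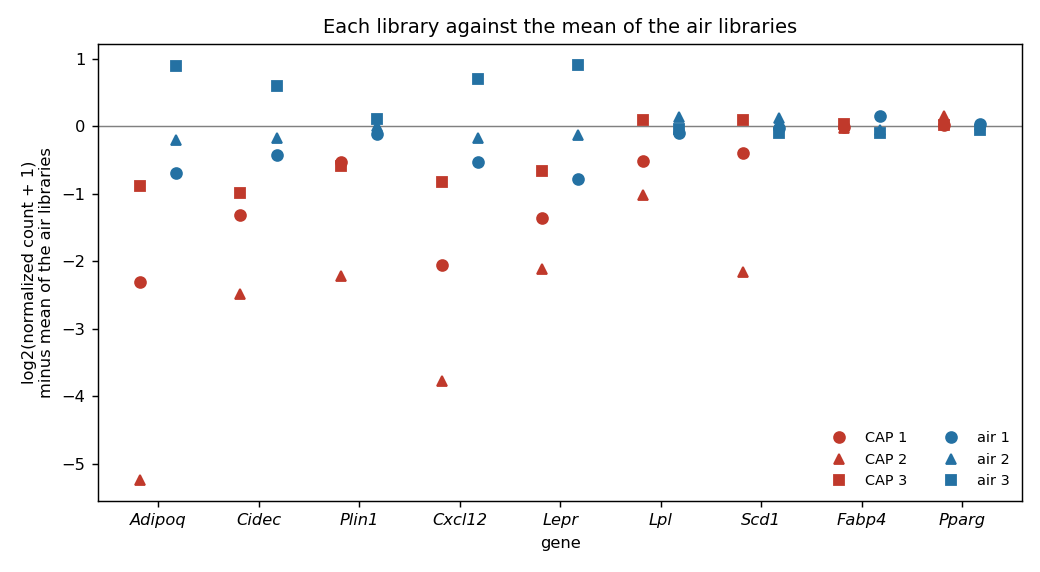
Difference of log2(normalized count + 1) from the mean of the air libraries, for 7 genes of the set and the stromal genes Cxcl12 and Lepr, 1 point per library, CAP in red and left of air in blue. CAP replicate 2 is lowest for Adipoq, Cidec, Plin1, Cxcl12, Lepr, Lpl and Scd1, while Fabp4 and Pparg stay near 0 in all 6 libraries.

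The same measure was taken for the 7 other genes that averaged at least 100 normalized counts, which leaves out Plin1 and Cidec. The nearest to Lpl were Ppm1k, Srr and Pdp1, at 0.05, 0.05 and 0.08 log2 units against a spread of 0.41. Those nearest to Scd1 were Snhg11, Rspo3 and Fam13a, at 0.11, 0.12 and 0.13 against 0.80. Pparg lay nearest to Nup50, Timm44 and Ctnnbip1, Fabp4 to S100a10, March2 and Sdhc, Fabp5 to Safb2, Cd52 and Arf5, Plin2 to Anapc5, Sf3a1 and Odf2, and Lipe to Man1c1, Fuz and Nrbf2, all within 0.05 log2 units. Many genes with little spread lie within such a distance of each other.

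The start regions of Adipoq, Plin1 and Cidec, 3 fat cell genes that were low in the same libraries, are shown. Lipe was also lower in all CAP libraries, but its start regions are not shown. RefSeq start regions were held for 6 of the 10 genes (Adipoq, Cidec, Lipe, Plin1, Plin2 and Pparg). The 250 bases before each start were searched on both strands for AGGTCA, the half-site of nuclear receptors such as PPARγ, for the direct repeat of that half-site spaced by 1 base, for the C/EBP core TTGCNNAA, for the CCAAT box and for TCACNCCAC, a sterol response element. The repeat contains the half-site, so that those matches overlap. Capitals mark the matches, in GRCm38.p6, read 5′ to 3′ on the strand of the gene. The Adipoq stretch is chr16:23146286-23146535, plus strand, with CCAAT at 7 to 3 bases before the start and its reverse complement at 34 to 30 and at 27 to 23. The Plin1 stretch is chr7:79732904-79733026, minus strand, with TTGCNNAA at 187 to 180 bases before the RefSeq start. It is the part of the searched 250 bases that lies outside exons of GENCODE vM21, and a further match at 58 to 51 bases falls in the part not shown. The Cidec stretch is chr6:113434765-113435014, minus strand, before the inner of 2 RefSeq starts and in an intron of the longer transcripts, with TTGCNNAA at 198 to 191 bases. The outer start of Cidec had no match to any of the 5 motifs.
Adipoq: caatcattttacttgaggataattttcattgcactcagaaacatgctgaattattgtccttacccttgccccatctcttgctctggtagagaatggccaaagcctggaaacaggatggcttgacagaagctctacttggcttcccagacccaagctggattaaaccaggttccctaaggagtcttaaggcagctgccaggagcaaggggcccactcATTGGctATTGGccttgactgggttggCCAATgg
Plin1: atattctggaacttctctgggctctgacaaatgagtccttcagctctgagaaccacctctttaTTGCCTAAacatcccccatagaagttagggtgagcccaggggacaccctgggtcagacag
Cidec: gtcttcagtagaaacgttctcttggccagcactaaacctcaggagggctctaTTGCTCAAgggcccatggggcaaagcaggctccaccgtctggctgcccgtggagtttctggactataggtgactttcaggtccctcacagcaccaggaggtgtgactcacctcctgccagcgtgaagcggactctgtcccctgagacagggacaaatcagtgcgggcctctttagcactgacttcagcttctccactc

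Of all 32851 start regions of this length, 33.8% held CCAAT, 9.56% held TTGCNNAA, 14.0% held AGGTCA, 1.05% held TCACNCCAC and 0.0335% held the repeat. AGGTCA was found before the start of Plin2 and before 2 of the 3 starts of Pparg, and in none of the 3 stretches shown. CCAAT was also found before Plin2 and before 2 starts of Pparg, and TTGCNNAA before 1 start of Pparg. Neither of the 2 starts of Lipe had a match to any of the 5 motifs. A match says only that these letters stand in the window.

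C/EBP factors, which bind the TTGCNNAA core, work with PPARγ in fat cells, and their genes stand in a list of 18 PPAR receptors and partners. No gene of this list passed the edgeR test, 14 had a log2 fold change below 0, against 51.2% of all tested genes, and the median was -0.15. This median was -0.04 without CAP replicate 2, -0.06 without air replicate 3 and -0.23 without CAP replicate 1. Cebpa, the C/EBP factor of mature fat cells, had 3855, 2579 and 4985 normalized counts in CAP and 5576, 4867 and 6117 in air. Cebpd, which acts early in fat cell differentiation, had 819, 443 and 767 in CAP and 1109, 925 and 1139 in air. Cebpd was lower in CAP without overlap between groups, as were 8.46% of all tested genes, while Cebpa overlapped. The log2 fold changes were -0.54 (SE 0.22) for Cebpa and -0.64 (SE 0.23) for Cebpd, each with an edgeR adjusted p of 0.468. The corepressor gene Ncor1 had a log2 fold change of 0.10 (SE 0.11), and Rxra, the partner receptor of PPARγ, had -0.10 (SE 0.11).

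Among 15 tested of 19 further adipocyte genes, 13 had a log2 fold change below 0, 0 passed the edgeR test and the median was -0.62, which was -0.40 without CAP replicate 1. The other 2 were above 0, the higher at 1.22, which is the adipocyte marker above 0. At an unadjusted edgeR p under 0.05, 1 gene was lower and 1 higher in CAP, against 4.68% and 5.89% of all tested genes. The higher one was not the gene at 1.22. Adig, the gene of adipogenin, had 0, 0 and 2.99 normalized counts in CAP and 19.3, 8.06 and 29.5 in air. Slc2a4, the insulin-responsive glucose transporter gene, had 3.80, 0 and 12.0 in CAP and 6.10, 24.2 and 36.6 in air. Both were near the lower limit of what these libraries could show. The adiponectin receptor genes Adipor1 and Adipor2 had log2 fold changes of -0.08 (SE 0.11) and -0.23 (SE 0.13). The fat cell genes Lep and Pck1 were at 0 in all libraries.

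Of 11 lipolysis genes, 7 had a log2 fold change below 0 and 0 passed the edgeR test, with a median of -0.28, which was -0.18 without air replicate 3. Adrb3, a receptor gene through which adrenergic signals start lipolysis in fat cells, had 38.0, 37.9 and 48.9 normalized counts in CAP and 90.4, 49.4 and 135 in air. The groups did not overlap, although CAP replicate 3 and air replicate 2 were almost level. Of the 11 genes, 4 were lower without overlap, Adrb1 also among them, against 8.46% of all tested genes. Its log2 fold change was -1.14 (SE 0.44), and Adrb1, a related receptor gene, had -0.46 (SE 0.27). Pnpla2, the gene of the lipase ATGL that takes the first step of lipolysis, had 0.0046 (SE 0.13), and Lipa, the lysosomal lipase gene, had 0.17 (SE 0.16).

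Of the 16 tested genes of fatty acid synthesis and desaturation, 7 had a log2 fold change above 0, 0 passed the edgeR test and the median was -0.03. This median was 0.11 without CAP replicate 2 and -0.20 without CAP replicate 3. Me1 and Fasn had an unadjusted p under 0.05 and were higher in CAP, as were 5.89% of all tested genes. Me1, malic enzyme, which supplies NADPH, had 1878, 2168 and 2182 normalized counts in CAP and 1676, 1492 and 1124 in air. Fasn, fatty acid synthase, had 12701, 10622 and 9959 in CAP and 9808, 8147 and 8513 in air. Both were higher in CAP without overlap between groups, as were 8.44% of all tested genes. Their log2 fold changes were 0.54 (SE 0.17) and 0.33 (SE 0.14), each with an edgeR adjusted p of 0.468. Acly, which makes acetyl-CoA for this pathway, had 0.12 (SE 0.14), and Elovl5, an elongase gene, had -0.27 (SE 0.14).

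Genes of fatty acid uptake, triglyceride synthesis and oxidation had medians near 0. Of 13 uptake genes 6 were above and 7 below 0, with a median of -0.0023, and Cd36, the fatty acid and lipoprotein scavenger receptor gene, had a log2 fold change of 0.32 (SE 0.24). Acsl5, an acyl-CoA synthetase gene, was higher in each CAP library, with 5598, 5921 and 4960.4 normalized counts in CAP and 4768, 4604 and 4304 in air. Slc27a3, a gene of the fatty acid transport protein family, had 379, 145 and 567 in CAP and 778, 579 and 713 in air, and did not overlap either. Higher in CAP without overlap were 8.44% of all tested genes, and lower 8.46%. Gpihbp1, which anchors lipoprotein lipase to capillary endothelium, had 14.3, 0 and 3.99 in CAP and 29.5, 3.02 and 73.2 in air, with overlap. Of 16 triglyceride synthesis genes 8 were above and 8 below 0, with a median of -0.02, among them Gpat3 at 0.56 (SE 0.27), Lpin1 at -0.59 (SE 0.35), Agpat1 at 0.24 (SE 0.15) and Agpat3 at -0.06 (SE 0.12). Of 14 oxidation genes 11 were below 0, with a median of -0.06. Pdk4, a kinase that spares glucose for fat burning, had -0.44 (SE 0.19), Cpt1a, the gate of fatty acids into mitochondria, had 0.20 (SE 0.11), Acadm had -0.30 (SE 0.18) and Ucp2 had -0.17 (SE 0.13). No gene of these lists passed the edgeR test.

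Of 10 tested genes of droplet coat and assembly outside the set, 5 were above and 5 below 0, with a median of 0.0050 and 0 passing the edgeR test. Hsd17b11, a droplet-bound dehydrogenase gene, had 3408, 1967 and 3822 normalized counts in CAP and 4073, 4753 and 4919 in air, with no overlap and a log2 fold change of -0.58 (SE 0.23). Lower in CAP without overlap were 8.46% of all tested genes. Bscl2, the gene of seipin, which shapes new droplets, had -0.30 (SE 0.20), and Fitm2, which also acts in droplet formation, had 0.17 (SE 0.17). Plin3, a widely used perilipin gene, and Aup1 each had -0.02 (SE 0.11 and 0.12).

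**Figure D4:**
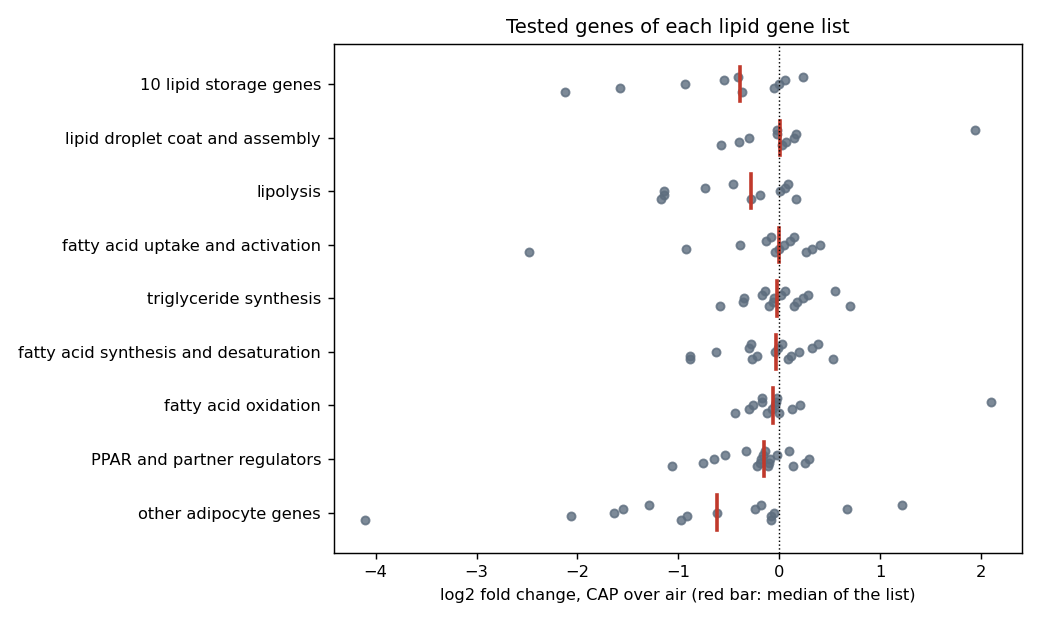
Log2 fold change, CAP over air, of each tested gene (grey points) in the set of 10 and in 8 further lipid lists, with the list median as a red bar. The medians lie at -0.39 for the set and -0.62 for the other adipocyte genes, and between -0.28 and 0.0050 for the 7 remaining lists.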

How the data were processed

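Libraries of 3 CAP and 3 air mice were used, 1 per mouse. The authors aligned single-end reads of stranded poly-A libraries to mm10 with STAR 2.6 and deposited raw counts per gene made with HTSeq 0.10.0. The sources used here do not give the annotation release or the strand setting. The 10 genes and the lists were chosen with earlier results of these data known. After dropping genes with under 10 counts in all, CAP was compared with air in R 4.3.3 with RLE factors and the quasi-likelihood test of edgeR 4.0.16, Benjamini-Hochberg adjusted. The current form of the test (legacy = FALSE) was chosen after results of it and of the older form had been seen. Alternatives were TMM, 2 other count filters, DESeq2 1.42.0, limma-voom (limma 3.58.1), a replicate block, the older form, and leaving out each library. Log2 values had a pseudocount of 1. Scripts were tested on simulated data. Named genes are the 10, the 3 of lowest p and the 2 of highest count per list, markers, and the 3 nearest profiles. The results of 3 genes that this rule names are not reported here. Names and positions came from GENCODE vM21 (GRCm38), start regions from RefSeq (GRCm38.p6). The biological coefficient of variation was 26.3%, at 28713206 to 30446171 counts per library.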

Additional observations from a re-analysis of the deposited data

How the results depend on the processing

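None of the 10 genes passed in 130 fits, which are 13 alternatives for each gene, with adjusted p from 0.133 to 0.997, and 124 of the 130 kept the direction. DESeq2 called 22 genes higher and 2 lower in CAP over the whole table, none of them among the 10, against 0 by edgeR. Fabp4 turned positive with limma-voom, at 0.0018, and with a replicate block, also at 0.0018. The fits without 1 library gave log2 fold changes of -0.048 to 0.077 for Fabp4 and -0.14 to 0.017 for Fabp5, of which Fabp4 was above 0 without CAP replicate 1, CAP replicate 2 or air replicate 1, and Fabp5 without CAP replicate 2. Without 1 library the list medians ran from -0.067 to 0.0093 for droplet coat and assembly, -0.086 to 0.017 for uptake, -0.069 to 0.16 for triglyceride synthesis and -0.91 to -0.40 for other adipocyte genes. The ranges were -0.58 to -0.16 for the 10 genes, -0.36 to -0.18 for lipolysis and -0.20 to 0.11 for fatty acid synthesis and desaturation. They were -0.10 to -0.04 for oxidation and -0.23 to -0.04 for PPAR and partner regulators.

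The length of the principal transcript, an alternative chosen after seeing the data, gave normalized counts per kilobase of 19173 for Fabp5, 13445 for Fabp4, 9915 for Plin2, 3233 for Lpl, 1191 for Pparg, 117 for Lipe and 33.7 for Plin1. The older form of edgeR's test was used in the first run and made an alternative after results had been seen. It called 0 genes, with a lowest adjusted p of 0.364 against 0.334. It gave 2 of the 10 genes an unadjusted p under 0.05, against 3.

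Deviations from the group mean correlated little between same-numbered CAP and air libraries, at -0.0208, 0.0875 and 0.1672. The replicate numbers are those of the sample titles, and the column names of the counts number the libraries otherwise. CAP replicate 2 and air replicate 3, which share a number there, had a correlation of -0.197. The numbers were therefore not taken to pair the mice. With the replicate block edgeR called 0 genes, as without it, and the lowest adjusted p among the 10 was 0.289. These comparisons are limited by 3 libraries and 1 cage per group.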
